A study of Homo sapiens with 8 samples.

Results

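Metallothioneins and the genes that govern zinc in the cell were followed in N/TERT-1 cells, an immortalized human epidermal keratinocyte line, after mitochondria were inhibited. The genes were chosen by symbol, from the 6 metallothionein genes MT1E, MT1F, MT1G, MT1M, MT1X and MT2A, the metal-responsive transcription factor MTF1 and the zinc exporter SLC30A1. They are 8 of the 61806 genes in the table, and 6 of them had enough reads to be tested. SLC30A1 transcripts rose 1.62-fold in treated cells, MT1F 1.33-fold, and MT1E and MTF1 1.24-fold each. MT2A and MT1X moved by 1.11-fold and 1.09-fold, which did not reach the size required of a change, and MT1G and MT1M were too low to test.

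Metallothioneins are small cysteine-rich proteins that bind zinc and copper and buffer the free metal in the cytosol. When free zinc rises, MTF1 binds it through zinc fingers, enters the nucleus and binds metal response elements in the promoters of the metallothionein genes and of SLC30A1, which moves zinc out of the cytosol across the plasma membrane. In skin, zinc is abundant in the epidermis, and metallothioneins are made by its dividing keratinocytes.

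Wild-type N/TERT-1 cells were grown in a serum-free keratinocyte medium with epidermal growth factor and bovine pituitary extract. The 4 control libraries came from cells given ethanol, the solvent, and the 4 treated libraries from cells given oligomycin, which blocks the mitochondrial ATP synthase, together with antimycin A, which blocks complex III of the respiratory chain (O/A), each for 4 hours. The replicates of each group came from independent experiments, all with this single immortalized line. Polyadenylated RNA was sequenced, so the values are transcript levels in bulk RNA, in which more cells with a transcript and more transcript per cell cannot be told apart.

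The ethanol libraries summed to between 17210404 and 20999927 counts, and the O/A libraries to between 17689760 and 19263046. The defining genes of basal keratinocytes were abundant in every library, with 7 of 7 markers tested and a summed level between 12890 and 13491 counts per 1e+06 counts of the library (CPM) with ethanol, and between 12225 and 12720 with O/A. Of these 7, only the basal keratin gene KRT5 was called, with a log2 fold change of -0.30, and among the 2 tested markers of differentiated keratinocytes KRT10 rose by 0.47 and IVL fell (log2 fold change -0.31). Of 5 melanocyte markers, TYR and MLANA had no count in any library, DCT and TYRP1 had at most 4, and PMEL, the only marker of that list tested, had between 17 and 45 (log2 fold change 0.10, adjusted p = 0.756, edgeR). The summed level of the list was 1.25 to 2.30 CPM with ethanol and 1.09 to 2.53 CPM with O/A. In the same libraries 4 of 5 fibroblast markers had at most 6 counts. The remaining fibroblast marker, the collagen gene COL1A1, had between 376 and 557 counts with ethanol, and between 381 and 443 with O/A. The part of these markers in the results was not tested.

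A gene was tested when at least 4 libraries had 10 counts or more. It was called changed when the adjusted p of edgeR's quasi-likelihood test was at most 0.05 and the log2 fold change was over 0.25 in size. Of the 14893 genes tested, 34.7% were called, 15.8% higher and 18.9% lower in O/A.

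The promoters of 3 of these genes are shown because they differ in how many copies of the metal response element core they carry. RefSeq promoter sequence (GRCh38.p14) was at hand for 4 of the 8 genes. Each window below holds the 250 bases that end just before the annotated gene start, written along the gene's strand. Capitals mark every match, on either strand, to TGCACNC or TGCGCNC; together these letters spell the element's core. MT2A lies on the forward strand (window chr16:56608334-56608583), MT1X on the forward strand (chr16:56682220-56682469) and SLC30A1 on the reverse strand (chr1:211579162-211579411).
MT2A: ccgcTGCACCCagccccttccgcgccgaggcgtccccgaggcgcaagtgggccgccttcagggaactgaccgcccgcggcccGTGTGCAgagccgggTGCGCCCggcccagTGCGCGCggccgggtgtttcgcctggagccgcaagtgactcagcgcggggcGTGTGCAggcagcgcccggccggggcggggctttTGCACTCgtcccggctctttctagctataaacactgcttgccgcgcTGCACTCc
MT1X: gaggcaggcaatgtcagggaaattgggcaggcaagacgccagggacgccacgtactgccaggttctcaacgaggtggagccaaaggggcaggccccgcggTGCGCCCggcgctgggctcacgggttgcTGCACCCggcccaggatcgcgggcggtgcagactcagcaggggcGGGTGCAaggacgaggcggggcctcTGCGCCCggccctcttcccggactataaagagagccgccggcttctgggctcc
SLC30A1: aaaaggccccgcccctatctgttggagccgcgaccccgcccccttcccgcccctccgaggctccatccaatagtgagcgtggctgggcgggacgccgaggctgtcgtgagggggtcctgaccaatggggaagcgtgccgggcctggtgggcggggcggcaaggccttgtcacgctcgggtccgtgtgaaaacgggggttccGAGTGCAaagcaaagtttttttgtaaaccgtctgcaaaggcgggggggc

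The MT2A window held 7 matches, 5 on the promoter's own strand and 2 on the other, and 0.0313% of the 35116 promoters of the same length held at least as many. MT1X held 4 matches, a number reached by 0.370% of promoters, and SLC30A1 held 1, as 24.8% of promoters did or exceeded. No match was found in the MTF1 window (chr1:37859593-37859842, reverse strand), which says only that these letters are not in it. GC content was 73.2% for MT2A, 70% for MT1X and 66.4% for SLC30A1, against a median of 58% over all promoters, and the matched letters are themselves rich in G and C. The matches are a description of the letters and not of bound sites. Beside these matches, the log2 fold changes were 0.16 for MT2A, 0.13 for MT1X, 0.70 for SLC30A1 and 0.31 for MTF1. Whether the matches bear on the changes was not tested, and MT1E and MT1F had no window.

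The zinc exporter had the largest log2 fold change of the 6 genes tested. SLC30A1 (ENSG00000170385, chromosome 1, 211571568 to 211579161, reverse strand, GRCh38) encodes ZnT1, the exporter that lowers cytosolic zinc at the plasma membrane. Its counts were 2708, 2640, 2554 and 3101 in the ethanol libraries and 4116, 4314, 4545 and 4151 in the O/A libraries. Scaled by TMM, which corrects library totals for composition, these were 146 ± 1.19 CPM (SD, n = 4) in ethanol and 237 ± 3.47 CPM (SD, n = 4) in O/A. Every O/A library was above every ethanol library, with 232 CPM as the lowest treated value and 148 CPM as the highest control value. The log2 fold change was 0.70 (SE 0.0278, 95% interval 0.64 to 0.75), with an adjusted p of 1.78e-27 by edgeR's quasi-likelihood test. An exact two-sided permutation test on the log2 CPM values gave p = 0.0286, the smallest that 4 against 4 libraries can give. Ranked by log2 fold change, it stood at position 792 of the 14893 genes tested.

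MTF1, the zinc-sensing transcription factor itself, rose as well. MTF1 (ENSG00000188786, chromosome 1, 37809574 to 37859592, reverse strand) had 711, 722, 675 and 833 counts in ethanol and 856, 833, 984 and 834 in O/A. After scaling, the ethanol libraries held 38.3, 40.5, 38.4 and 39.2 CPM and the O/A libraries 49.2, 44.9, 52.1 and 47.9 CPM. The groups did not overlap, and the treated libraries were spread more widely (SD 2.99 CPM) than the controls (SD 1.00 CPM). The log2 fold change was 0.31 (SE 0.0470, 95% interval 0.22 to 0.41; adjusted p = 1.34e-07, edgeR), and on the log2(FPKM + 1) scale it was 0.22, within the threshold for size.

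**Figure D1:**
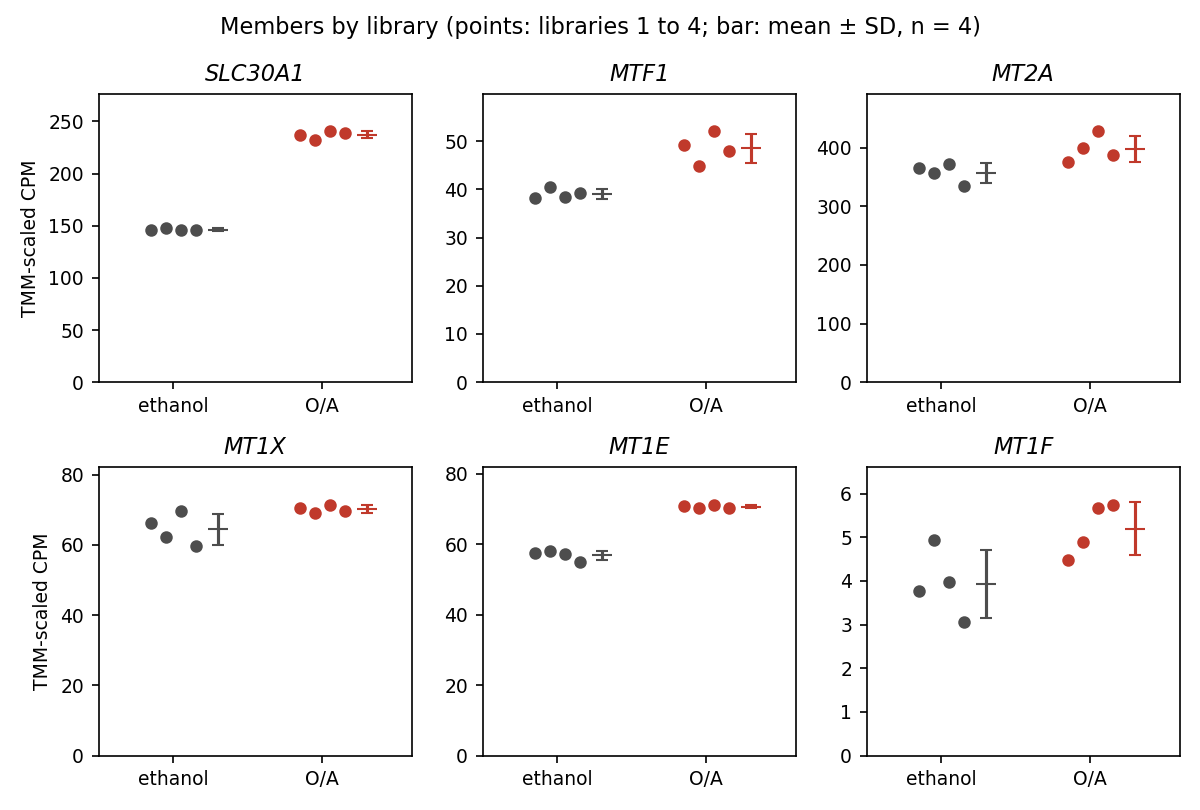
TMM-scaled CPM (vertical axis, from 0, a separate scale for each gene) of the 6 genes tested, in ethanol and O/A libraries (points, n = 4 each, with mean ± SD as the bar beside them). SLC30A1, MTF1, MT2A and MT1E show no overlap between the groups, whereas MT1X and MT1F do.

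Of the 6 metallothionein genes, 2 were not tested. Of those tested, 2 were called higher in O/A, and 2 passed the adjusted p with a change too small to be called. Among all genes tested, 15.8% were called higher, and 26.0% had an adjusted p of at most 0.05 with a positive log2 fold change. MT1E (ENSG00000169715, chromosome 16, 56625475 to 56627112, forward strand), a metallothionein-1 isoform, had 1067, 1033, 1002 and 1171 counts in ethanol and 1232, 1305, 1345 and 1221 in O/A. These scaled to 56.9 ± 1.27 CPM (SD, n = 4) and 70.6 ± 0.480 CPM (SD, n = 4). The lowest O/A library, at 70.2 CPM, was above the highest ethanol library, at 57.9 CPM. The log2 fold change was 0.31 (SE 0.0385, 95% interval 0.24 to 0.39; adjusted p = 8.97e-10, edgeR).

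MT1F (ENSG00000198417, chromosome 16, 56657731 to 56660698, forward strand), another metallothionein-1 isoform, was the least abundant of the genes tested. Its counts were 70, 88, 70 and 65 in ethanol and 78, 91, 107 and 100 in O/A. The scaled values overlapped, from 3.06 to 4.94 CPM in ethanol and from 4.49 to 5.75 CPM in O/A. The log2 fold change of 0.41 carried the widest interval of the 6 (SE 0.136, 95% interval 0.14 to 0.69), with an adjusted p of 0.00878 by edgeR. On the log2 CPM values the exact permutation test gave p = 0.0857. Without ethanol replicate 4, the library with the lowest MT1F value, the log2 fold change was 0.31 and the adjusted p 0.0629, so the call rests on that library. The coefficient of variation between ethanol libraries was 19.7%, where counting error alone gives 11.7%.

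MT2A, the main metallothionein of most human tissues, was the most abundant member. MT2A (ENSG00000125148, chromosome 16, 56608584 to 56609497, forward strand) had 6775, 6360, 6527 and 7104 counts in ethanol and 6516, 7395, 8084 and 6747 in O/A. After scaling, the ethanol libraries held 365, 357, 372 and 334 CPM and the O/A libraries 375, 398, 428 and 388 CPM. The groups were only just apart, since the highest ethanol value was 372 CPM and the lowest O/A value 375 CPM. In the deposited FPKM, which carry no TMM factor, the same libraries overlapped, from 370 to 415 in ethanol and from 403 to 459 in O/A. The log2 fold change was 0.16 (SE 0.0398, 95% interval 0.07 to 0.24; adjusted p = 0.00375, edgeR), below the threshold for size.

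MT1X (ENSG00000187193, chromosome 16, 56682470 to 56684196, forward strand), the metallothionein-1 isoform nearest the end of the gene cluster, was close to MT1E in counts. It had 1229, 1109, 1222 and 1271 counts in ethanol and 1228, 1281, 1350 and 1214 in O/A. The ethanol libraries ran from 59.8 to 69.6 CPM and the O/A libraries from 69.0 to 71.5 CPM, so that the groups overlapped. The log2 fold change was 0.13 (SE 0.0411, 95% interval 0.04 to 0.21; adjusted p = 0.00799, edgeR), again below the threshold for size. Of the 255 windows of 150 bases in its canonical transcript, 17 were shared with an unnamed gene that overlaps it on the same strand and had no count in any library. How reads on that stretch were assigned is not known.

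MT1G (ENSG00000125144, chromosome 16, 56666730 to 56668065, reverse strand) had 1 count in all 8 libraries together, in ethanol replicate 3. MT1M (ENSG00000205364, chromosome 16, 56632659 to 56633981, forward strand) had none. A count of 0 allows up to 3 counts, which is 0.143 to 0.174 CPM in these libraries for counting error alone. Neither gene was detectable above that level at this depth, in either condition.

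Of the 6 genes tested, 4 were called higher and 0 lower, where 15.8% of all genes tested were called higher. All 6 had an adjusted p of at most 0.05 with a positive log2 fold change, as did 26.0% of all genes tested. In 4 of the 6 every O/A library was above every ethanol library on the CPM scale, a pattern found in 22.8% of all genes tested. Their median log2 fold change was 0.31, and that of all genes tested was -0.0004. All 6 passed the count minimum in every library of both conditions.

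**Figure D2:**
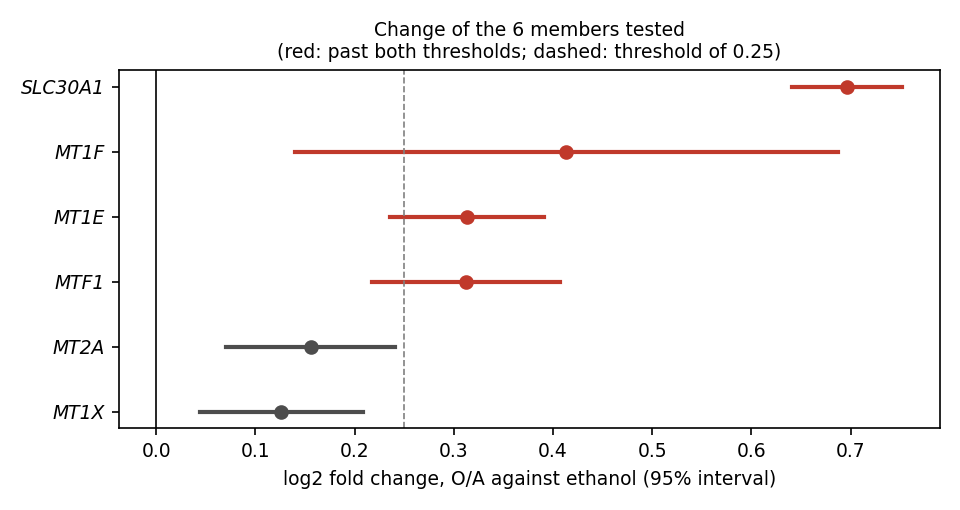
Log2 fold change of O/A against ethanol (horizontal axis) for the 6 genes tested, with 95% intervals, the 0.25 threshold dashed and genes past both thresholds in red. SLC30A1 lies highest at 0.70, MT1F has the widest interval (0.14 to 0.69), and MT2A and MT1X lie below the threshold at 0.16 and 0.13.

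The libraries with the lowest and highest values recurred across the metallothionein genes. Ethanol replicate 4 was the lowest ethanol library for MT2A, MT1X, MT1E and MT1F on the CPM scale. O/A replicate 3 was the highest treated library for MT2A, MT1X and MT1E, and also for MTF1 and SLC30A1. For MT2A the coefficient of variation between ethanol libraries was 4.61%, above the 1.22% of counting error, whereas for SLC30A1 it was 0.812%, below the 1.91% of counting error.

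The metallothionein family as a pool was dominated by MT2A. The 22 family genes in the table summed to 498, 490, 514 and 459 CPM of the plain library total in ethanol and 513, 537, 567 and 525 in O/A. On this scale the groups met at their edges, with 514 as the highest control and 513 as the lowest treated value. After TMM scaling the pool was 483 ± 21.8 CPM in ethanol and 545 ± 24.0 CPM in O/A (SD, n = 4), and the groups did not overlap. The log2 ratio of the means was 0.13 before and 0.17 after that scaling. MT2A made up 73.7% to 74.0% of the pool in ethanol and 71.8% to 74.0% in O/A. The share of MT1E was 11.3% to 12.1% in ethanol and 12.3% to 13.6% in O/A, without overlap.

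Ratios taken within a library do not depend on how libraries are scaled. Of the 15 pairs among the 6 genes tested, 6 had ratios that did not overlap between conditions. Each of these had p = 0.0286 by exact permutation and 0.0714 after Benjamini-Hochberg adjustment over the 15, so no pair passed 0.05. These 6 are not separate results, since every one of them holds SLC30A1 or MT1E, and pairs with a gene in common share its change. How often the ratios of other gene pairs do not overlap was not tested. The count ratio of SLC30A1 to MT1X was 2.09 to 2.44 in ethanol and 3.35 to 3.42 in O/A. The ratio of SLC30A1 to MT2A was 0.391 to 0.437 in ethanol and 0.562 to 0.632 in O/A. The ratios of SLC30A1 to MTF1 and to MT1E were also higher in every treated library than in any control, and its ratio to MT1F overlapped.

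Within the family, the ratio of MT1E to MT1X was 0.820 to 0.931 in ethanol and 0.996 to 1.02 in O/A. The ratio of MT2A to MT1X overlapped, at 5.34 to 5.73 in ethanol and 5.31 to 5.99 in O/A. MTF1 and MT1E kept overlapping ratios, 0.666 to 0.711 in ethanol and 0.638 to 0.732 in O/A.

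Levels of different genes can be compared only per length of transcript. In the deposited FPKM (fragments per kilobase of exon, scaled to the library total), MT2A was highest in ethanol at 396 ± 19.0, followed by MT1E at 54.9 ± 1.27, MT1X at 37.9 ± 2.64, SLC30A1 at 25.2 ± 0.218, MTF1 at 4.97 ± 0.128 and MT1F at 2.16 ± 0.426 (SD, n = 4). No neighbours in this order overlapped between libraries. In O/A the means were 427 ± 24.0 for MT2A, 66.0 ± 0.388 for MT1E, 40.0 ± 0.524 for MT1X, 39.5 ± 0.480 for SLC30A1, 5.97 ± 0.354 for MTF1 and 2.76 ± 0.321 for MT1F. With this gene length MT1X and SLC30A1 overlapped in O/A, whereas SLC30A1 had been below MT1X in every ethanol library.

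The gene length behind these values decides part of the order. The FPKM use the whole exonic size of a gene, which is 1727 bases for MT1X and 1852 for MT1F, although the canonical transcripts (GENCODE v44) are 404 and 425 bases long. With canonical lengths, a choice made after the data were seen, MT1X was 162 ± 11.3 CPM per kilobase in ethanol and MT1E 77.4 ± 1.79, so that MT1X stood above MT1E. MT2A was then 903 ± 43.3, and MT1F, at 9.40 ± 1.86, stood above MTF1 at 5.00 ± 0.130 (SD, n = 4). In O/A, MT1X was then 169 to 173 CPM per kilobase and SLC30A1 38.9 to 40.0, so that these genes no longer overlapped.

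**Figure D3:**
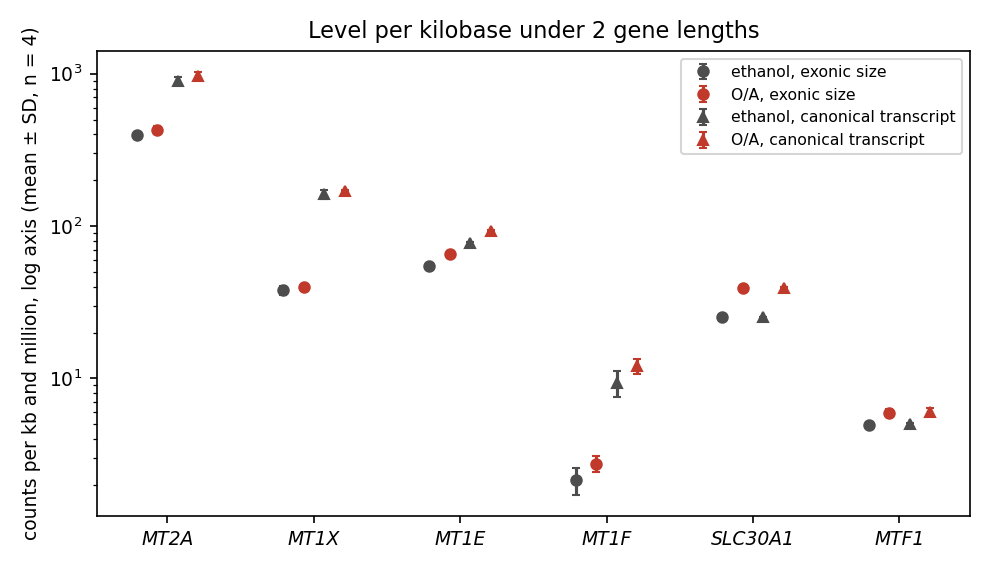
CPM per kilobase (log axis, mean ± SD, n = 4) of the 6 genes tested in ethanol (grey) and O/A (red), with the deposited exonic size (circles) or the canonical transcript length (triangles). MT2A is highest under both lengths, and MT1X moves from below MT1E to above it.

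The remaining metallothionein genes and pseudogenes were almost silent. Of 17 listed, 16 were in the table and 1 was tested, the processed pseudogene MT2P1 on chromosome 4, with at most 25 counts in an ethanol library and at most 33 in an O/A library (log2 fold change 0.41, SE 0.233, 95% interval -0.05 to 0.88; adjusted p = 0.131, edgeR). The other 15 had at most 3 counts in any library, and 7 of them had none at all.

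On chromosome 16 the metallothionein genes form a cluster of 119 kb (56565073 to 56684196). It held 16 family genes, of which 4 were tested and 12 had at most 2 counts in any library. Of the genes of other families within 300 kb of the cluster, 23 are described here, 7 of them tested. Among those 7, 3 were called higher, 1 lower and 3 not called, where 15.8% of all genes tested were called higher and 18.9% lower. HERPUD1, a component of the endoplasmic reticulum degradation machinery, lay 248 kb from the cluster and had between 859 and 994 counts with ethanol, but between 6375 and 6980 with O/A (log2 fold change 2.92, SE 0.0323; adjusted p = 1.13e-51, edgeR). NUP93, a nuclear pore protein, fell (log2 fold change -0.28, adjusted p = 3.00e-09). OGFOD1, BBS2, which overlaps the cluster, and NUDT21 had log2 fold changes of -0.23, 0.18 and -0.10 and were not called. The other 2 genes called higher are unnamed, had at most 67 and 61 counts in a library and lie inside HERPUD1 on its strand. Whether their reads came from HERPUD1 was not tested.

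**Figure D4:**
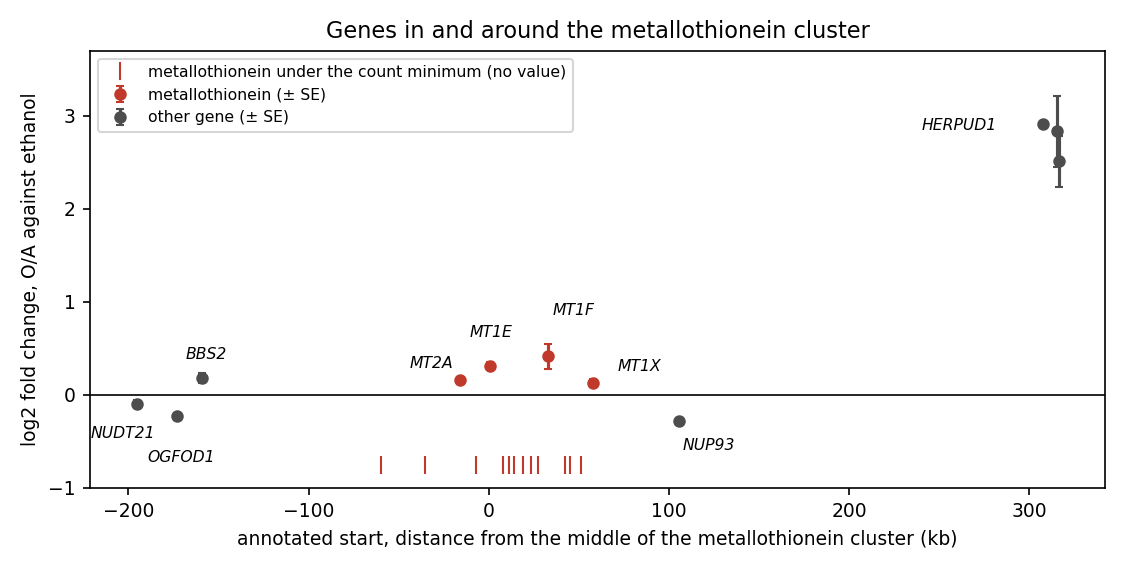
Log2 fold change of O/A against ethanol (vertical axis, ± SE) against distance from the middle of the metallothionein cluster (horizontal axis, kb). Metallothionein genes are red, other genes grey, and ticks mark metallothionein genes under the count minimum. The 4 tested metallothioneins lie between 0.13 and 0.41, and HERPUD1 stands at 2.92.

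Other genes that move zinc were read against these values. Of 9 further SLC30 exporters, 5 were tested, with 2 called higher, 0 lower and a median log2 fold change of 0.13. For comparison, 15.8% of all genes tested were called higher and 18.9% lower. SLC30A7, which loads zinc into the Golgi, rose (log2 fold change 0.33, adjusted p = 2.66e-09, edgeR), as did SLC30A4, an endosomal transporter (0.27, adjusted p = 0.00260). The SLC30A4 call was lost without ethanol replicate 2 (log2 fold change 0.24) and without O/A replicate 1 (0.20), leaving 1 exporter called, and also on both log2 FPKM scales (adjusted p = 0.0574, limma). SLC30A5 and SLC30A9, both above 1000 counts in every library, had log2 fold changes of 0.12 and 0.04 and were not called.

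Of 14 SLC39 importers, 11 were tested, with 2 called higher, 2 lower and a median of -0.06. These counts were close to the shares over all genes tested, 15.8% higher and 18.9% lower. SLC39A14, which takes up zinc and iron at the plasma membrane, had between 2843 and 3381 counts with ethanol, but between 4725 and 5090 with O/A (log2 fold change 0.76, SE 0.0274; adjusted p = 3.33e-29, edgeR). SLC39A7, which releases zinc from the endoplasmic reticulum, rose by 0.31 (adjusted p = 9.43e-13). SLC39A10, a plasma membrane importer, fell, with 979 counts in the lowest ethanol library and 867 in the highest O/A library (log2 fold change -0.32, adjusted p = 1.25e-08). SLC39A4, best known for zinc uptake in the gut, fell (log2 fold change -0.30, adjusted p = 0.0165), a call lost without O/A replicate 2 (adjusted p = 0.0559), under DESeq2 (adjusted p = 0.0501), under quantile normalization (log2 fold change -0.21) and on the log2(FPKM + 1) scale (-0.19). SLC39A13 had a log2 fold change of -0.24 (adjusted p = 1.02e-05, edgeR) and was not called. It was called lower without ethanol replicate 2, without O/A replicate 4, under quantile normalization and on both log2 FPKM scales. SLC39A6 and SLC39A9, both above 1000 counts in every library, had log2 fold changes of 0.04 and 0.02. The exporter SLC30A1 and the importer SLC39A14 thus both rose, by 0.70 and 0.76 on the log2 scale.

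Metallothioneins also bind copper, and all 10 copper handling genes listed were tested, with 3 called higher, 3 lower and a median of 0.10. Beside them, 15.8% of all genes tested were called higher and 18.9% lower. SLC31A1, the high-affinity copper importer CTR1, rose, with 1470 counts in the highest ethanol library and 2497 in the lowest O/A library (log2 fold change 1.12, SE 0.0329; adjusted p = 4.01e-33, edgeR). CCS, the copper chaperone of superoxide dismutase, and SLC31A2, a related transporter of intracellular vesicles, rose by 0.28 and 0.27, calls that were lost without ethanol replicate 1 (CCS, log2 fold change 0.23) and without O/A replicate 3 (SLC31A2, 0.25, just under the threshold), and both on the log2(FPKM + 0.1) scale (0.24 and 0.22) and the log2(FPKM + 1) scale (0.21 each). SCO2, SCO1 and the copper pump ATP7B fell, with log2 fold changes of -0.94, -0.34 and -0.46, that of ATP7B being -0.16 and not called on the log2(FPKM + 1) scale. SCO1 and SCO2 carry copper to cytochrome c oxidase in mitochondria.

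**Figure D5:**
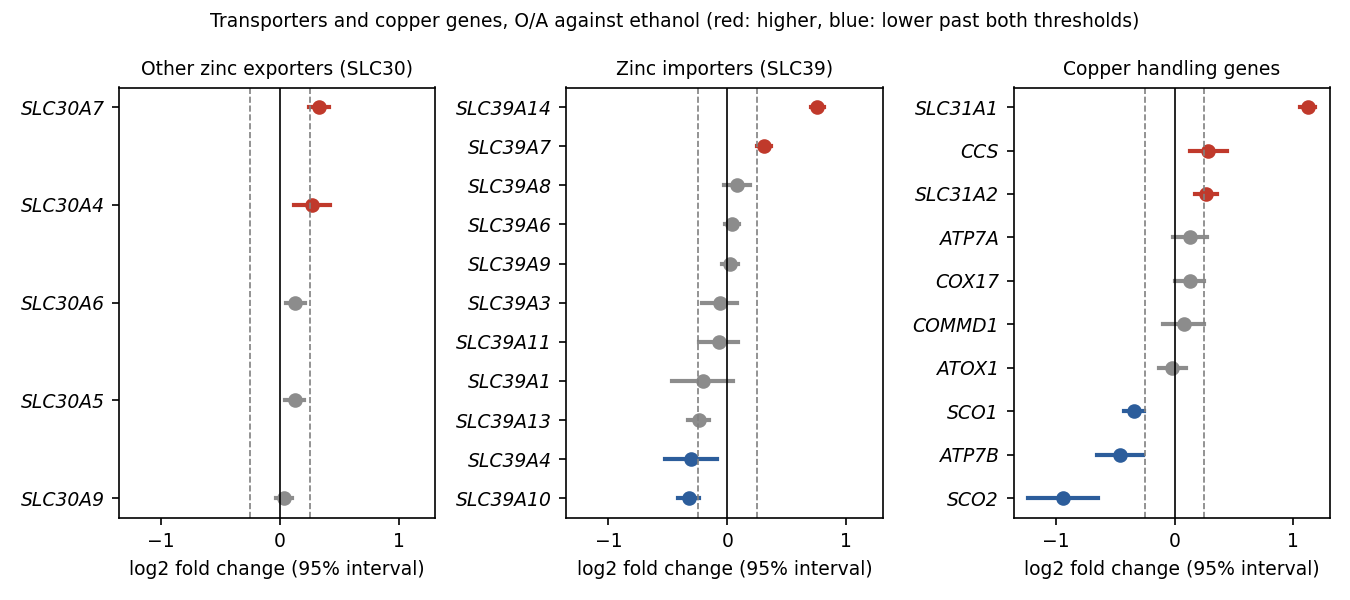
Log2 fold change of O/A against ethanol (horizontal axis, 95% intervals) for the tested SLC30 exporters, SLC39 importers and copper handling genes, red where called higher and blue where called lower. SLC31A1 at 1.12 and SLC39A14 at 0.76 lie farthest to the right, and SCO2 at -0.94 farthest to the left.

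Metallothionein genes are also known to be induced by oxidants, heavy metals and glucocorticoids, so target genes of those signals were read in the same libraries. Over all genes tested, 15.8% were called higher and 18.9% lower. Of 11 heavy metal and oxidant response genes tested, 8 were called higher and 0 lower, with a median log2 fold change of 0.43. They were led by SLC7A11, the cystine importer that feeds glutathione synthesis (2.53), the thioredoxin reductase TXNRD1 (0.96) and the chaperone HSPA1A (0.72), whose reads may be shared with its near-identical copy HSPA1B. The chaperone genes DNAJB1 (0.34) and HSPH1 (0.29) rose as well, the HSPH1 call being lost under quantile normalization (0.20) and on the log2(FPKM + 0.1) and log2(FPKM + 1) scales (0.25 and 0.24). GCLM, a subunit of the rate-limiting enzyme of glutathione synthesis, and NQO1, a quinone reductase, had 0.18 and 0.19 and were not called.

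Of 9 glucocorticoid receptor target genes, 8 were tested, with 5 called higher, 2 lower and a median of 0.57. The shares over all genes tested were 15.8% higher and 18.9% lower. The phosphatase gene DUSP1 (log2 fold change 1.45), TSC22D3, which encodes GILZ (1.33), and the clock gene PER1 (0.72) rose, while the glutamine synthetase gene GLUL (-0.44) and the kinase gene SGK1 (-0.33) fell. FKBP5, a co-chaperone of the receptor, had a log2 fold change of -0.10 and was not called. Whether any of these signals bears on the metallothionein values was not tested.

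Scaled profiles over the 8 libraries were compared with the mean of MT1E, MT1F, MT1X and MT2A. The candidates were 11336 genes with a mean FPKM of at least 1, without the members and the genes of every list used here. SNRNP27, TOM1, NIPSNAP3A, CNNM3 and ISCU lay nearest. Their root mean square distance was 0.0358 to 0.0434 on the log2 scale, and their log2 fold changes were 0.20, 0.22, 0.24, 0.22 and 0.31. Some genes must lie nearest in any ranking of the 11336 candidates. The distance reached by chance was not tested, nor was any function shared by the genes named.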

How the data were processed

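Reads (150 bases, paired) were aligned with HISAT2 2.0.1 and counted with HTSeq 0.6.1 per the submitters' processing notes, on GRCh38; the strand setting and annotation release are not given in the sources used here. The authors deposited whole-number counts per gene, not normalized, and FPKM, which divide counts by exonic size and library total. Their DESeq2 columns (means, fold changes, statistics and p-values) were not used.

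Counts of the 4 ethanol and 4 O/A libraries were tested together with edgeR 4.0.16 (R 4.3.3; TMM scaling, robust quasi-likelihood test, Benjamini-Hochberg adjustment over 14893 genes), after tests on simulated data. The SE is the log2 fold change divided by the square root of F. DESeq2 1.42.0, limma 3.58.1 on log2(FPKM + 0.1) and log2(FPKM + 1), other filters and scalings, and leaving out each library were alternatives. Of 20417 rows without a symbol, 20380 were found in a gene name table and took the entry given there. Some genes, such as the unnamed ones above, still had only an identifier.

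The members, gene lists and tests were chosen with earlier results of these data known. Genes named were the members, up to 3 highest and 3 lowest called genes of each list, list genes over 1000 counts in every library, genes within 300 kb of the cluster (an item there is not reported here), and the 5 nearest profiles. MT2P1, SLC39A13, KRT10, IVL, COL1A1 and the melanocyte markers were named after their values were seen, as were the gene lengths of canonical transcripts.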

Additional observations from a re-analysis of the deposited data

Results flagged for a closer look

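SLC30A1 in ethanol replicate 2 stood apart from its group, at 148 CPM against 145 to 146 CPM in the other 3 ethanol libraries, by Dixon's test. The gap is small beside the 237 CPM of the O/A libraries. The 12 groups of 4 libraries were examined, and chance alone gives about 1 in 20 groups, or 0.6 of 12.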

How the results depend on the processing

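None of the log2 fold changes of the 6 genes tested changed sign under any alternative run. Of the alternatives tried, the fold threshold moved the counts most. Above a log2 fold change of 1 in size, 797 genes were called, 382 higher and 415 lower, and 0 of the zinc genes studied here; the further zinc exporters and the zinc importers then had 0 each, copper genes 1, heavy metal and oxidant genes 1, and glucocorticoid targets 2. Under log2(FPKM + 1), 1514 genes were called higher, 3 copper genes and 1 further zinc exporter were called, and MTF1 had a log2 fold change of 0.22; under log2(FPKM + 0.1), 1 further zinc exporter was called. Heavy metal and oxidant genes called were 7 under quantile normalization and log2(FPKM + 0.1) and 6 under log2(FPKM + 1). Leaving out single libraries gave 1 to 2 further zinc exporters, and MT1F without ethanol replicate 4 had a log2 fold change of 0.31 (adjusted p = 0.0629, edgeR).

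Higher calls were 45.5% of all calls in the main test, 38.0% under log2(FPKM + 0.1) and 38.6% under log2(FPKM + 1). Over all alternatives, log2 fold changes ran from 0.63 to 0.72 for SLC30A1, 0.22 to 0.36 for MTF1, 0.26 to 0.33 for MT1E, 0.26 to 0.54 for MT1F, 0.04 to 0.19 for MT2A and 0.08 to 0.17 for MT1X. The adjusted p of MT2A and of MT1X was above 0.05 under 3 alternatives each. MT1F could not be tested with a minimum of 100 counts.

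Libraries with the same number did not deviate together (correlations of -0.023 to 0.067), so the numbers were not used as pairs. A fit with a replicate block called 5160 genes, 2354 higher and 2806 lower, 4 of the zinc genes studied here, and of its genes 5117 were also called without the block. The calls of the 6 genes tested and of the gene lists were the same. Depth limits MT1G and MT1M, which could not be seen, and MT1F, which had at most 107 counts in a library.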
